A study of Homo sapiens with 6 samples.

Results

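The zinc finger genes of chromosome 19 were taken as the protein coding genes of GENCODE on GRCh37 that lie on chromosome 19 and carry a symbol of ZNF and a number, with at most 1 letter after it. This rule found 246 genes, beside 1234 other protein coding genes of the chromosome and out of 20162 protein coding genes in all. It used names and positions, and no measured value. HA peaks and H3K4me3 regions were scored within 1 kb of the transcription start site (TSS) of each canonical transcript. All 243 members whose canonical transcript could be translated held the spaced cysteine and histidine pattern of a C2H2 finger, with a median of 12 matches and up to 36, and 167 also held the core pattern of a KRAB domain. For 3 members with no canonical transcript (ZNF43, ZNF442 and ZNF714), the 5′ end of the gene was used.

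The samples came from U2OS, a human osteosarcoma line, grown to 2 days past confluence and profiled by native ChIP-Seq. Chromatin was cut into short nucleosome fragments with micrococcal nuclease and precipitated without crosslinking. The ProMMP2-3xHA cells are 1 stable U2OS line in which proMMP-2, the uncleaved precursor of a secreted protease, is made at all times with 3 HA tags at its C-terminus beside the cell's own MMP-2, so an HA antibody recovers the tagged protein, and the wild type (WT) U2OS cells carry no tag. The lists comprised HA in ProMMP2-3xHA cells (3 replicates and 1 merged list called on the pooled replicates), H3K4me3 in ProMMP2-3xHA cells (1 library) and H3K4me3 in WT cells (1 library). H3K4me3, trimethylation of lysine 4 of histone H3, marks active promoters. HA in WT cells has no list of its own here and was not analysed here as a sample. The lists held 6391 to 9176 HA peaks per replicate and 7211 merged HA peaks, and HA replicate 1 had the fewest.

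C2H2 zinc finger proteins read DNA through an array of fingers, each of which contacts a few bases. Most of those encoded on chromosome 19 join such an array to a KRAB domain, which binds the co-repressor TRIM28, and TRIM28 in turn brings the H3K9 methyltransferase SETDB1 and HP1 proteins to silence transposable elements. The genes arose by tandem duplication, and many still stand beside their relatives in large clusters.

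The members differed in the bases before their TSSs, and 5 stretches of the 200 bases upstream, read on the sense strand of GRCh37, are given to show it. They are those of ZNF8 (chr19:58790121-58790320, plus strand) and ZNF837 (chr19:58892398-58892597, minus strand), which had HA peaks in every replicate, of ZNF225 (chr19:44617352-44617551, plus strand) and ZNF256 (chr19:58459075-58459274, minus strand), which had H3K4me3 and no HA peak, and of ZNF91 (chr19:23578274-23578473, minus strand), which lies in the cluster without HA peaks described later. None overlaps an annotated exon of a protein coding gene. CpG dinucleotides are in capitals.
ZNF8: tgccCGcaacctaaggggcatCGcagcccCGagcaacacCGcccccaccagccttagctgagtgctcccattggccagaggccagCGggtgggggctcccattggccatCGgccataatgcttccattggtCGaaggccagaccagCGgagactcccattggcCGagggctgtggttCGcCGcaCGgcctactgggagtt
ZNF837: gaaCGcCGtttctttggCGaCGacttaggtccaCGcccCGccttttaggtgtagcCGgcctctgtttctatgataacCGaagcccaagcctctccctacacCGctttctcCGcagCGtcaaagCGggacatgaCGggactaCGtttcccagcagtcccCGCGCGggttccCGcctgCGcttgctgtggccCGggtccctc
ZNF225: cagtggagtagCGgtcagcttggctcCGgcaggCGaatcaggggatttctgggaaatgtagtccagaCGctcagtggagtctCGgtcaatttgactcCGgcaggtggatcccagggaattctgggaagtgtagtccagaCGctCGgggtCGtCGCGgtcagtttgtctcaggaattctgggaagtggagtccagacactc
ZNF256: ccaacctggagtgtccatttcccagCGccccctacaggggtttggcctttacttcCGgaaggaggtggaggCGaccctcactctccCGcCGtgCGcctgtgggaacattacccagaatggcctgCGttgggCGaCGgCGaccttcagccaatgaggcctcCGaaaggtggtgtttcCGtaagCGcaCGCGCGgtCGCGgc
ZNF91: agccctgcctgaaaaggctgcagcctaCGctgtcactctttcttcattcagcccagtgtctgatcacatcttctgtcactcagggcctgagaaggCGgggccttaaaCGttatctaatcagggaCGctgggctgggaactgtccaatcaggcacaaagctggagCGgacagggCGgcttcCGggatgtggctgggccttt
There were 12 CpG in the stretch of ZNF8, 20 in that of ZNF837, 11 in that of ZNF225, 18 in that of ZNF256 and 7 in that of ZNF91. The stretch of ZNF8 held the CCAAT word 4 times on either strand, against 1 in ZNF256, 1 in ZNF91 and 0 in ZNF837 and ZNF225.

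The first comparison asked whether tagged MMP-2 was found at zinc finger TSSs as often as at the other TSSs of the chromosome. A merged HA peak lay within 1 kb of 62 of the 246 members (25.2%, 95% interval 19.9 to 31.1), and of 25.2% of the other 1234 genes of chromosome 19. HA replicate 1 had a peak at 42 members (17.1%), HA replicate 2 at 64 (26%) and HA replicate 3 at 67 (27.2%), against 18.1%, 23.1% and 25.4% of the other genes of the chromosome. Over all protein coding genes of the genome these shares were 30% for the merged list and 21.8%, 29.5% and 30.4% for the 3 replicates. The members minus the other genes of the chromosome gave −0.998, 2.92 and 1.87 percentage points (mean 1.26 ± 2.03, SD, n = 3), which is within the spread between replicates (exact two-sided permutation of the sign, p = 0.5, where 0.25 is the smallest p that 3 replicates allow). The direction depended on the start site used, since the 5′ end of the gene in place of the canonical TSS gave a mean of −4.56. Intervals here and elsewhere are exact (Clopper-Pearson) for shares and Newcombe's for differences, and they cover counting error only.

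H3K4me3 was found at zinc finger TSSs more often than at the other TSSs of the chromosome. It lay within 1 kb of 194 members in ProMMP2-3xHA cells (78.9%) and of 202 in WT cells (82.1%), against 54.8% and 58.9% of the other genes of chromosome 19. The differences were 24.1 percentage points (interval 17.9 to 29.5) and 23.2 (17.3 to 28.3), with 1 library in each line and so no test. Over all protein coding genes of the genome, H3K4me3 was at 60.5% of TSSs in ProMMP2-3xHA cells and 64.3% in WT cells. The regions at members were narrower, with a median width of 937.5 bp in ProMMP2-3xHA cells against 1207 bp at the other genes (ratio 0.777, and 0.799 in WT cells).

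Each member with an HA peak also had H3K4me3 in ProMMP2-3xHA cells. All 62 members with a merged HA peak had H3K4me3 in both lines, and none of the 52 members without H3K4me3 in ProMMP2-3xHA cells had an HA peak in any of the 4 HA lists (0 of 52, interval up to 6.85%). HA was rare at such TSSs in general, with a merged peak at 7 of 558 other genes of the chromosome (1.25%) and at 72 of 7969 of all protein coding genes (0.903%), so the 0 of 52 was near the background. A further 132 members had H3K4me3 in both lines and no merged HA peak, and 102 members with H3K4me3 in ProMMP2-3xHA cells had no HA peak in any list. No member had H3K4me3 in ProMMP2-3xHA cells only, 8 had it in WT cells only and 44 in neither.

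Among TSSs with H3K4me3 in ProMMP2-3xHA cells, HA was less frequent at members than at the other genes of chromosome 19 in each replicate. The share of the 194 members was 21.6%, 33.0% and 34.5% in HA replicates 1, 2 and 3, against 32.1%, 40.4% and 45.6% of 676 other genes. The differences were −10.5, −7.39 and −11.0 percentage points (mean −9.62 ± 1.95, SD, n = 3; exact two-sided permutation of the sign, p = 0.25, the smallest possible). The merged list gave 32.0% (25.5 to 39.0) against 45.0%, a difference of −13.0 points (−20.2 to −5.21). Over all protein coding TSSs with H3K4me3, an HA peak was present at 49.1% in the merged list and at 35.5%, 47.9% and 49.8% in the 3 replicates. Where only regions over the TSS base itself were counted, in place of those within 1 kb, the mean difference shrank to −2.03 points (exact two-sided permutation of the sign, p = 0.5).

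The 262 ZNF genes of other chromosomes, chosen by the same symbols, had HA peaks more often than the members in every replicate. Their shares were 28.2%, 46.6% and 41.6% in replicates 1, 2 and 3 and 41.6% in the merged list. The members minus these genes gave −11.2, −20.5 and −14.4 points over all TSSs, and −11.4, −21.0 and −14.1 points at TSSs with H3K4me3 (exact two-sided permutation of the sign, p = 0.25 for both, the smallest possible). H3K4me3 was present at 85.5% of these genes in ProMMP2-3xHA cells, and their median region was 1282.5 bp wide. Of the 18 genes of chromosome 19 with names of other zinc finger families (ZFP, ZSCAN, ZIM, ZIK and ZBTB), 13 had H3K4me3 in both lines and 4 had a merged HA peak (22.2%, 6.41 to 47.6).

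**Figure D1:**
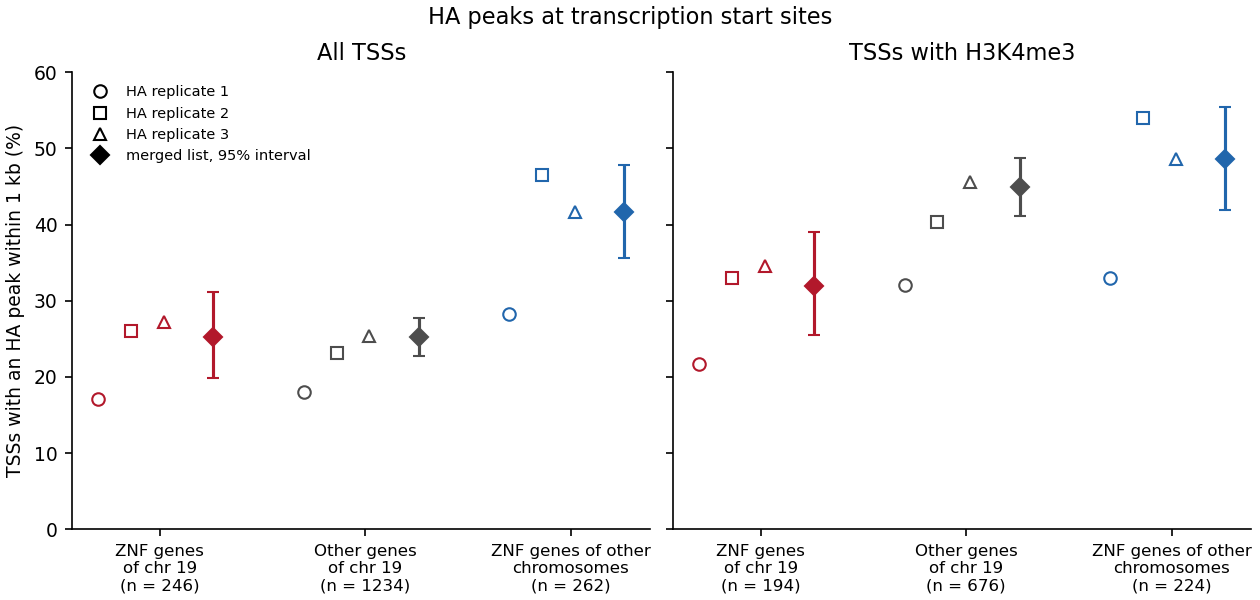
Percent of TSSs with an HA peak within 1 kb, for all TSSs (left) and for TSSs with H3K4me3 in ProMMP2-3xHA cells (right); open symbols are the 3 HA replicates and diamonds the merged list with its exact 95% interval. On the left the zinc finger genes of chromosome 19 lie beside the other genes of the chromosome, and on the right they lie below both other groups in each replicate.

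The H3K4me3 regions differed in width between the groups, and the HA share rose with width in both. At members the merged HA share was 10.5% of 19 TSSs with a region under 500 bp, 17.9% of 84 with 500 to under 1000 bp, 48.8% of 86 with 1000 to under 2000 bp and 60% of 5 with 2000 bp and over. The other genes of the chromosome gave 17.3%, 35.2%, 46.9% and 74.0% in the same classes. The intervals of these shares cover counting error over genes only. They did not overlap in the class of 500 to under 1000 bp (10.4 to 27.7 against 28.5 to 42.3). In the class of 1000 to under 2000 bp they overlapped almost wholly (37.9 to 59.9 against 41.0 to 52.8). In the class of 500 to under 1000 bp the members had 9.52%, 20.2% and 25% in replicates 1, 2 and 3, against 23.5%, 27.0% and 35.7% of the other genes. Regions of 2000 bp and over made up 2.58% of those at members and 17.6% of those at other genes. When the shares of the other genes were weighted to the widths of the members, an alternative chosen after seeing the data, the differences were −6.22, −1.54 and −7.23 points in the 3 replicates (mean −5.00 ± 3.03, SD, n = 3; exact two-sided permutation of the sign, p = 0.25), closer to 0 than the unweighted mean.

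**Figure D2:**
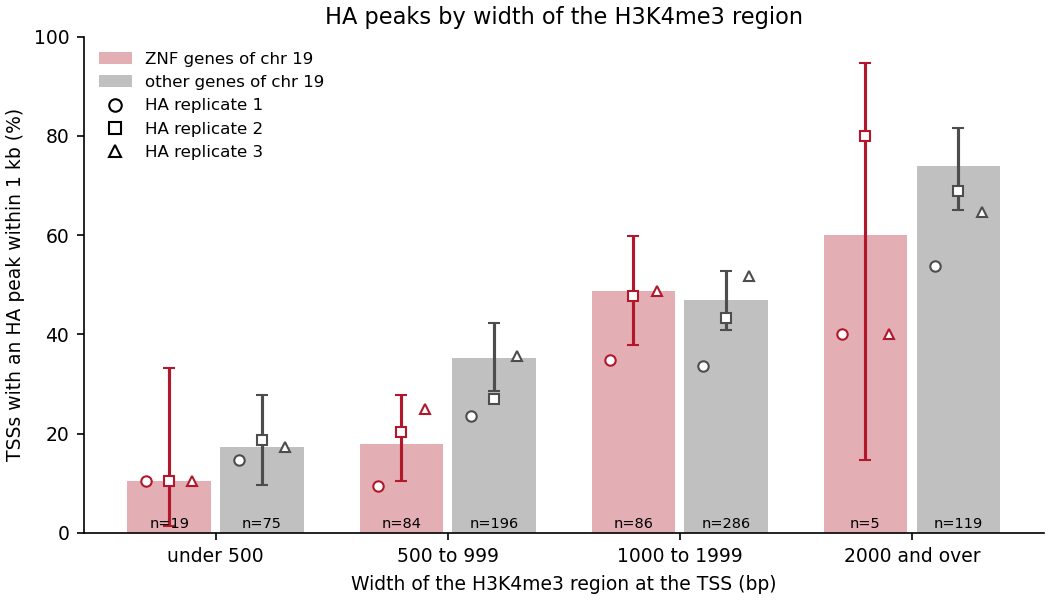
Percent of TSSs with an HA peak within 1 kb (y axis) by the width in bp of the H3K4me3 region of ProMMP2-3xHA cells at the TSS (x axis); bars are the merged list with exact 95% intervals, open symbols the 3 HA replicates, and n the number of TSSs. The bars of the zinc finger genes lie below those of the other genes of chromosome 19 for narrow regions and level with them from 1000 to under 2000 bp.

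Where HA peaks were present, their strength at members and at the other genes of the chromosome differed by less than the spread between replicates. Fold enrichment is the number of fragments at the summit, scaled to the depth of the control precipitation, over the local background of that control. A value of 1 is added to both before the division. Its median at members with a peak was 5.41, 5.71 and 5.36 in HA replicates 1, 2 and 3, against 5.12, 6.03 and 5.22 at the other genes. The ratio was 1.05, 0.946 and 1.03 (exact two-sided permutation of the sign of the log2 ratio, p = 1.0). These peaks rest on few fragments, with a median at the summit of 46.5, 46.0 and 40.0 in replicates 1, 2 and 3 and a range at members from 23 to 179. Of the summits within 500 bp of a member TSS, 66.7%, 77.0% and 66.2% lay downstream of it, at a median of 122.5, 142 and 128 bp, against 67.4%, 71.8% and 74.8% at the other genes (exact two-sided permutation of the sign, p = 0.75).

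The replicates shared only part of the member TSSs. Of the 246 members, 30 had a peak in every HA replicate, 22 in 2, 39 in 1 and 155 in none. All 30 with every replicate were in the merged list, which also held 20 members with 2 replicates, 11 with 1 and 1 with none. Of the 39 members with a single replicate, 4 had it in replicate 1, 15 in replicate 2 and 20 in replicate 3. The 62 members were served by 59 merged peaks, since 3 peaks lay near 2 members each, and 28 of the 59 peaks overlapped a peak of every replicate. Over the genome, 3773 of the 7211 merged peaks overlapped every replicate, so partial overlap was not particular to the members. Counting only merged peaks that overlap every replicate left 30 members.

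Of the members with a merged HA peak and a peak in every replicate, 8 are named for the highest mean fold enrichment over the 3 replicates. ZNF524, a gene with 4 finger matches and no KRAB pattern, had fold enrichments of 9.10, 13.3 and 8.85 in HA replicates 1, 2 and 3. Its merged peak (chr19:56110588-56111283) was centred 719 bp upstream of the ZNF524 TSS and 52 bp upstream of the TSS of the divergent gene FIZ1, so it lay at the start of FIZ1 rather than of ZNF524. ZNF181, a KRAB gene with 11 finger matches, had 10.3, 10.6 and 8.85, with summits 114 to 117 bp downstream of the TSS in all 3 replicates (merged peak chr19:35224850-35225391). The replicates of ZNF181 differed by less than those of ZNF524, and both peaks stood above the median of the list in every replicate.

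ZNF8, also a KRAB gene, had 9.70, 13.8 and 6.22, the largest difference between replicates of any member with all 3. Its summit was 101 bp upstream of the TSS in replicate 1 and 93 and 130 bp downstream in replicates 2 and 3, within the merged peak chr19:58789862-58790719. ZNF302, a KRAB gene that shares its promoter region with the divergent gene SCGB2B2, had 8.25, 8.78 and 9.68, with summits 137 to 143 bp downstream of the TSS. ZNF837, with 8 finger matches and no KRAB pattern, had 6.6, 10.8 and 7.89, and its merged peak (chr19:58891897-58892445) was centred in intron 1. ZNF274, a KRAB and SCAN domain protein known to help silence the 3′ ends of other zinc finger genes, had 5.61, 9.48 and 6.78, with a merged peak also centred in intron 1 (chr19:58694496-58695149). In 4 of these 6 genes (ZNF181 and ZNF302 excepted) replicate 2 stood more than 1.3-fold above both of the others.

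ZNF580 and ZNF581, neighbouring genes without a KRAB pattern and with 3 and 4 finger matches, lay under 1 merged HA peak of 3530 bp (chr19:56151558-56155087), the widest at any member. The H3K4me3 region there was also the widest among the named members, at 3818 bp in ProMMP2-3xHA cells and 4460 bp in WT cells. The fold enrichment at ZNF580 was 7.81, 11.8 and 5.36, and at ZNF581 it was 8.99, 11.8 and 8.20. Replicates 1 and 3 held 2 separate peaks under this region and replicate 2 held 1, so the value of replicate 2 is the same peak for both genes. The merged list had joined neighbouring calls, as no gap between its regions was below 4032 bp.

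Wide H3K4me3 was also found at members with no HA peak in any of the 4 lists. ZNF576 had the widest such region, with 2736 bp in ProMMP2-3xHA cells and 3095 bp in WT cells, at a promoter that lies within 1 kb of the TSS of IRGQ. ZNF345 had 1939 and 2161 bp, ZNF225 had 1899 and 2250 bp, and ZNF699 had 1835 and 2612 bp. ZNF256 had 1880 and 1606 bp, the only one of the 5 that was wider in ProMMP2-3xHA cells. These 5 were picked as the widest, so their widths do not stand for the class. The median was 807.5 bp at all members with H3K4me3 and no merged HA, and 1296.5 bp at those with merged HA. ZNF225, ZNF256 and ZNF699 are KRAB genes, with 14 to 17 finger matches.

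**Figure D3:**
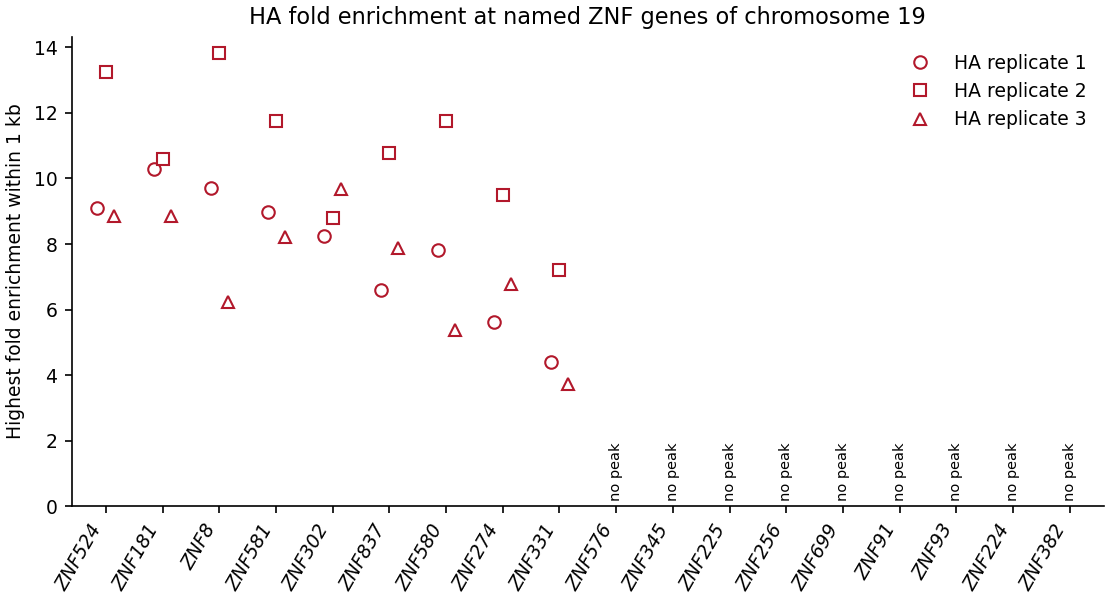
Highest fold enrichment of HA within 1 kb of the TSS (y axis) in each of the 3 HA replicates for named zinc finger genes of chromosome 19 (x axis), ordered by their mean. Values run from 3.73 at ZNF331 to 13.8 at ZNF8, and 9 genes had no peak in any replicate, of which ZNF224 had a merged peak only.

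Among members named for what is known of them, ZNF331, a gene with several promoters of which some are imprinted, had HA fold enrichments of 4.40, 7.22 and 3.73, at a canonical TSS with H3K4me3 of only 518 bp in ProMMP2-3xHA cells and 1480 bp in WT cells. ZNF224, a KRAB repressor of the aldolase A gene, had a merged HA peak of 154 bp upstream of its TSS and no peak in any single replicate. ZNF382, a KRAB gene with 9 finger matches, had neither HA nor H3K4me3, although its CpG ratio (observed over expected CpG within 500 bp of the TSS) was 0.777. ZNF91, which represses SVA elements and had 31 finger matches, had H3K4me3 of 220 bp in ProMMP2-3xHA cells and 685 bp in WT cells, and no HA peak. ZNF93, which represses L1 elements, had neither H3K4me3 nor HA.

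HA peaks were unevenly spread over the clusters. Members whose TSSs lay within 500 kb of the next formed 8 runs of at least 10 genes, numbered here from the short arm telomere, and 24 members lay outside them. On the short arm a merged HA peak was present at 8 of 83 members (9.64%, 4.25 to 18.1), and on the long arm at 54 of 163 (33.1%, 26 to 40.9). The share was 6.02%, 13.3% and 12% on the short arm and 22.7%, 32.5% and 35% on the long arm in replicates 1, 2 and 3. At TSSs with H3K4me3 the merged shares were 16.3% (7.32 to 29.7) and 37.2% (29.4 to 45.7). The runs were defined by position alone, and their differences are described without a test.

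Run 3, next to the centromere on the short arm (chr19:19779648-24269989, from the first to the last TSS), had no HA peak at any of its 37 members in any of the 4 HA lists (0 of 37, interval up to 9.49%). H3K4me3 was present at 8 of them in ProMMP2-3xHA cells and at 12 in WT cells, and these regions were short, with a median of 635 bp in ProMMP2-3xHA cells. The 8 were ZNF14, ZNF91, ZNF101, ZNF429, ZNF430, ZNF492, ZNF675 and ZNF738. With 0 of 8, the interval of the HA share at H3K4me3 TSSs reaches 36.9%, above the 33.3% at TSSs with H3K4me3 outside the run, so a lower share was not detectable at this number. The 3 other protein coding genes in this stretch had no merged HA peak, and 1 of them had H3K4me3 in ProMMP2-3xHA cells. The run had the lowest median CpG ratio of all runs, 0.538 against 0.726 at members outside it. It also had the largest share of repeated sequence, with a median of 14.3% of the 31-base words within 500 bp of the TSS found again elsewhere in GRCh37, against 0.618% at members outside it. The part of either in the absence of HA peaks was not tested. Among the 8 members of the run with H3K4me3 in ProMMP2-3xHA cells, the share of repeated words was highest at ZNF492 (24.9%). At the others it ran from 0.515% (ZNF14) to 14.3% (ZNF91).

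Run 4 on the long arm (chr19:36705567-38270226) had the highest HA share. A merged peak was present at 15 of its 26 members (57.7%, 36.9 to 76.6), with 9, 15 and 13 members in HA replicates 1, 2 and 3. Peaks of every replicate were found at 6 of them, ZNF146, ZNF565, ZNF566, ZNF567, ZNF573 and ZNF790, named here after their values were seen, with fold enrichments from 3.07 to 6.69. ZNF565 and ZNF146 are a divergent pair of members under 1 peak. ZNF568 and ZNF829 form another such pair, with a peak of replicate 2 only (5.71). Of the 6 other protein coding genes in this stretch, 5 had H3K4me3 and 0 had a merged HA peak. These included ZFP14, ZFP82 and ZFP30, zinc finger genes that the symbol rule left out. ZFP30 had a peak in HA replicate 2 only (2.91).

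The other runs lay between these. Run 7 (16 members) had a merged HA peak at 8, run 8 (43 members) at 16, run 5 (23 members) at 5, run 1 (13 members) at 3, run 2 (25 members) at 3 and run 6 (39 members) at 5. In the merged list runs 2 and 6 had low HA shares, at 13.0% (2.78 to 33.6) of 23 and 14.7% (4.95 to 31.1) of 34 TSSs with H3K4me3. The replicates differed, and over all members HA replicates 1, 2 and 3 gave 8%, 24% and 12% in run 2. In run 6 they gave 10.3%, 12.8% and 25.6%. The median H3K4me3 width in ProMMP2-3xHA cells was 787 bp in run 2 and 807.5 bp in run 6. Run 8, which ends near the long arm telomere, held 9 of the 30 members with peaks of every replicate.

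**Figure D4:**
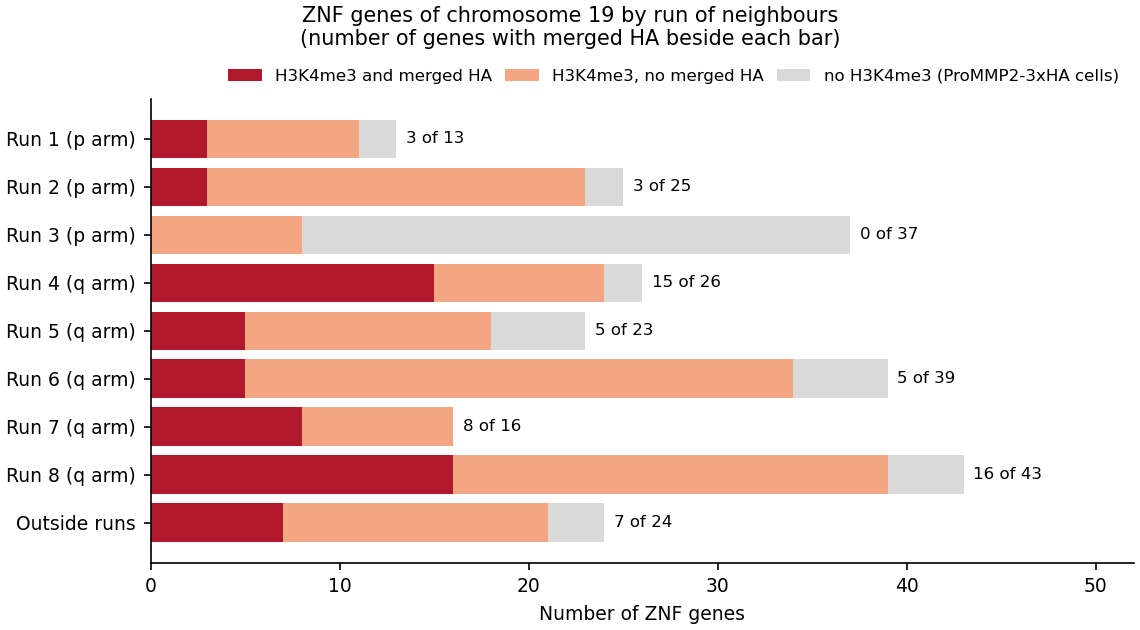
Number of zinc finger genes of chromosome 19 (x axis) in each run of neighbours (y axis, from the short arm telomere to the long arm telomere), divided by the presence of H3K4me3 in ProMMP2-3xHA cells and of a merged HA peak. Run 3 has 0 of 37 members with HA and mostly no H3K4me3, and run 4 has 15 of 26.

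Without run 3, a setting chosen after seeing the data, the members had merged HA at 29.7% of 209 TSSs. The replicates then gave 20.1%, 30.6% and 32.1%, and the differences to the other genes of the chromosome were 2.02, 7.53 and 6.69 points. At TSSs with H3K4me3 they remained negative, at −9.52, −5.98 and −9.54 points. The comparison over all TSSs thus moved with this run, and that at TSSs with H3K4me3 kept its direction without it.

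The HA share was lower with the KRAB pattern than without it in each replicate. A merged peak was present at 34 of 167 KRAB members (20.4%, 14.5 to 27.3) and at 28 of 76 others (36.8%, 26.1 to 48.7). The replicates gave 12.6%, 20.4% and 22.2% with the pattern and 27.6%, 38.2% and 39.5% without it. Outside run 3 and at TSSs with H3K4me3, the merged shares were 27.6% (20.0 to 36.4) of 123 and 45.2% (32.5 to 58.3) of 62. The intervals overlap, the pattern finds only the common form of the domain, and this split was not tested.

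The TSSs with HA were richer in CpG. The CpG ratio had a median of 0.765 at members with a merged HA peak, 0.706 at those with H3K4me3 and no merged HA, and 0.557 at those without H3K4me3, and 0.801 at the 30 with every replicate. At the other genes of chromosome 19 it was 0.774 with merged HA and 0.752 with H3K4me3 and no merged HA, so the groups overlapped there. GC content at members followed the same order, with medians of 60.9%, 58.4% and 54.6%, whereas at the other genes it was 63.7% with HA and 65.9% with H3K4me3 only. The H3K4me3 region was also wider at members with HA, with a median of 1296.5 bp against 807.5 bp. Width and CpG content moved together with HA here, and their parts were not told apart.

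**Figure D5:**
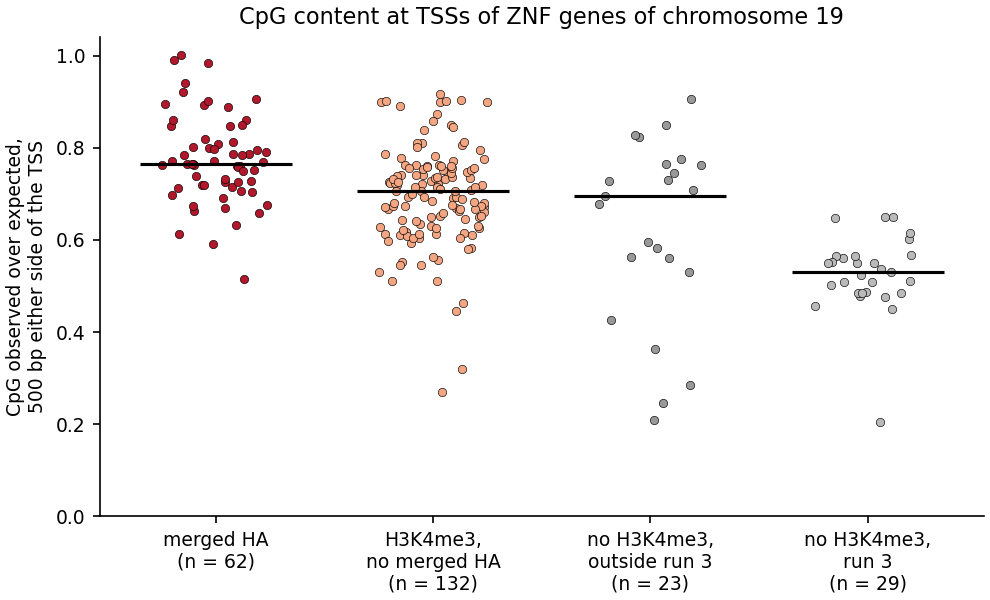
Observed over expected CpG within 500 bp of the TSS (y axis) for each zinc finger gene of chromosome 19, by class (x axis); lines are medians. The medians are 0.765 with merged HA, 0.706 with H3K4me3 and no merged HA, 0.695 without H3K4me3 outside run 3 and 0.531 without H3K4me3 in run 3.

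Short promoter words were searched within 250 bp of the TSS on both strands. The ETS word CCGGAAGT was found at 53 members (21.5%), against 6.81% of the other genes of chromosome 19, 14.1% of the ZNF genes of other chromosomes and 6.57% of all protein coding genes. It was present at 25.8% of members with merged HA, 24.2% of those with H3K4me3 and no merged HA, and 9.62% of those without H3K4me3. The other genes of the chromosome had it at 12.9% with merged HA and 10.8% with H3K4me3 and no merged HA. CCAAT was found at 61% of members, against 45.0% of the other genes of the chromosome and 43.3% of all genes. Its share ran the other way, with 46.8% with merged HA, 59.8% with H3K4me3 only and 80.8% without H3K4me3. Of the 52 members without H3K4me3, 29 lie in run 3. The other genes of the chromosome had CCAAT at 42.4% with merged HA and 48.7% with H3K4me3 and no merged HA. The YY1 word AAGATGGC was found at 6.50% of members, in 2 of 62 with merged HA and 14 of the 132 with H3K4me3 only, and at 5.26% of all genes. GGGCGG was found at 79.3% of members and 69.2% of all genes, GCATGCGC at 4.88% and 4.67%, TGACGTCA at 4.07% and 2.83%, and TCGCGAGA at 1.22% and 1.88%. By class, GGGCGG was at 82.3% of members with merged HA and 81.8% of those with H3K4me3 only. The other genes of the chromosome had GGGCGG more often in these classes, at 88.7% and 94.6%. A match of letters is a description and not a site of binding.

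Some merged HA peaks lay in gene bodies away from any start site. Of the 403 merged peaks on the chromosome, 2 lay in member bodies over 1 kb from every protein coding transcript start. The other genes of the chromosome held 41 such peaks. Median gene length was 25.8 kb at members and 13.9 kb at the other genes, and rates by length were not compared. The member peak in ZNF211 (chr19:58153834-58154017) lay in exon 4, the last exon, 9250 bp from the nearest start, with 4.64, 8.92 and 5.26 in HA replicates 1, 2 and 3. That in ZNF793 (chr19:38016061-38016269) lay in intron 5, with 7.29 in replicate 1 and no peak in the other replicates. Neither lay within 1 kb of H3K4me3 in either line.

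Regions of H3K4me3 at members were narrower in ProMMP2-3xHA cells than in WT cells, as they were at the other genes. The width in ProMMP2-3xHA cells over that in WT cells had a median of 0.755 over the 194 members with both, and 181 of them were narrower. The other genes of the chromosome gave 0.736. Among members, the ratio was 0.788 with merged HA and 0.726 without. The 8 members with H3K4me3 in WT cells only had short regions, of which ZNF708 (769 bp), ZNF83 (708 bp) and ZNF100 (675 bp) were the widest. ZNF708 and ZNF100 lie in run 3. Each line had 1 library, so a difference between the lines and one between the libraries cannot be told apart.

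The genes of the KRAB silencing machinery, scored from a list, all carried H3K4me3. Of 28 such genes, 28 had H3K4me3 in both lines. A merged HA peak was present at 15, against the 49.1% given above for all TSSs with H3K4me3. HA replicates 1, 2 and 3 had a peak at 11, 13 and 12, against 35.5%, 47.9% and 49.8% of all TSSs with H3K4me3. TRIM28, which itself lies on chromosome 19 and binds the KRAB domain, had 5.85 and 6.22 in replicates 1 and 3 and no peak in replicate 2. CBX3, an HP1 protein, had the highest fold enrichments of the list, 8.96, 14.9 and 13.7, and DNMT1, the maintenance DNA methyltransferase, had 3.89, 5.32 and 7.56. SETDB1, the H3K9 methyltransferase of the complex, and its partner ATF7IP had H3K4me3 and no HA peak in any list. The TSSs of 3 of 5 mesenchymal genes had H3K4me3 in both lines (COL1A1, VIM and RUNX2, but not COL1A2 and TWIST1), a share close to the 60.5% of all protein coding genes, and 2 of the 5 (COL1A1 and VIM) had a merged HA peak.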

How the data were processed

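Native ChIP-Seq of U2OS cells was used as peak lists. Per the labels and the methods of the study, the authors trimmed reads with Trim Galore 0.6.0, aligned pairs to GRCh37 (hg19) with Bowtie2 2.3.5.1, kept a mapping quality of 30 with SAMtools 1.9, removed duplicates with Picard and called peaks with MACS2 3.0.0a6 at a q-value of 0.05 over an input or control precipitation. The deposited HA replicate lists give the fold enrichment of each summit as a ratio and the −log10 of its p-value and q-value. The merged HA list (called on pooled replicates) and both H3K4me3 lists are intervals without a score, in which the authors had joined narrow and broad calls. The mapping filter removes reads that fit several places, which can lower signal where paralogs are alike. Its effect here was not tested. The deposited lists hold no read counts, so depth is unknown for H3K4me3. For HA, fragments at a summit were recovered from the fold enrichment and −log10 p-value for 99.8%, 99.985% and 99.7% of summits in replicates 1, 2 and 3, with HA to control depth ratios of 3.565, 2.807 and 3.0.

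Genes and exons came from GENCODE 44 lifted to GRCh37. Summits listed for the same interval were joined, and the largest fold enrichment among them was kept. Differences were taken within each of the 3 HA replicates, which the study describes as independent biological replicates, and their signs were permuted exactly. Shares carry exact 95% intervals. Finger and KRAB patterns were searched in translated GENCODE coding sequences in place of RefSeq proteins. Computations used Python 3.11.15, numpy 2.4.6, scipy 1.17.1, pandas 2.3.3 and statsmodels 0.14.6, and were tested on simulated data where a statistic was recovered. The members, lists and tests were chosen with earlier results of these data known. Genes were named by rule: the 8 strongest with HA in the merged list and every replicate, the 5 with the widest H3K4me3 and no HA, members with merged HA and no H3K4me3 (0 found), the 3 widest with H3K4me3 in 1 line only, members with a merged peak in the gene body, 6 chosen from general knowledge (ZNF91, ZNF93, ZNF224, ZNF274, ZNF331 and ZNF382), and the members with the widest merged peak and the largest gap between replicates. The alternatives tried were other windows and start sites, stricter q-values, a common minimum peak width, merged peaks overlapping every replicate, promoters shared with no other gene, other sets of genes to compare with, other H3K4me3 conditions and widths, and leaving out each replicate. A list of marker genes of other lineages is not reported here.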

Additional observations from a re-analysis of the deposited data

How the results depend on the processing

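No paired analysis was possible because the groups share no 2 replicate numbers. The replicate tests cannot pass 0.05 under any setting, so for those results only direction and size were compared. The HA differences at TSSs with H3K4me3 kept their sign throughout, with the replicate mean (−9.62) from −15.8 with the 5′ end of the gene to −2.03 with regions over the TSS base, and the merged difference from −19.7 to −7.66. The replicate difference over all TSSs (1.26) was 5.41 without run 3 and turned to −4.56 with the 5′ end of the gene, −0.375 at a q-value of 0.001, −4.18 against genes off chromosome 19 and −15.4 against ZNF genes of other chromosomes, and the merged difference, near 0 and of either sign among the settings, moved to −6.10 with the 5′ end of the gene and −16.4 against those ZNF genes. The fold enrichment ratio (1.01) turned to 0.996 at a q-value of 0.01 and 0.990 with the mean of log2 values, and the downstream share difference (−1.39) to 1.32 against genes off chromosome 19. The H3K4me3 share difference in ProMMP2-3xHA cells moved to 14.2 with the region over the TSS base, where WT cells gave 22.8. Without run 3 it moved to 34.2 (32.0 in WT cells). Against ZNF genes of other chromosomes it turned to −6.63 (−6.82 in WT cells). The width ratio in ProMMP2-3xHA cells moved to 0.647 against genes off chromosome 19, where WT cells gave 0.743. The 62 members with merged HA became 32 with the region over the TSS base and 30 with peaks overlapping every replicate. Leaving out each replicate gave a difference of 0.436 to 2.40 over all TSSs and −10.7 to −8.92 at H3K4me3 TSSs. It gave a fold enrichment ratio of 0.986 to 1.04, below 1 without replicate 1 (0.986) or replicate 3 (0.999), and a downstream share difference of −4.69 to 2.24, above 0 without replicate 3 (2.24). The comparisons without run 3, against ZNF genes of other chromosomes and with weighted widths were chosen after seeing the data. The cause of these changes was not tested. With 3 replicates no sign test can pass 0.05, and 1 library in each line allows no test of H3K4me3.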
